A study of Rattus norvegicus with 11 samples.

Results

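In the hippocampus of rats, 15 of 45220 numbered array features (0.0332%) were shifted after a sham operation relative to both naive rats and rats given deep brain stimulation (DBS). A feature is a spot position on the array. The members were chosen on the measured values themselves: the sham mean had to exceed the larger of the DBS and naive means by at least 0.3 on the log2 scale (1.23-fold) with every sham array above every other array, or to lie below the smaller by as much with every sham array below every other array. There were 11 features in the first direction, called sham-high and numbered H1 to H11 from the largest to the smallest gap, and 4 in the second, called sham-low and numbered L1 to L4. Because the choice used these contrasts, the distances of sham from DBS and from naive are given as descriptions, without a test.

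The study measured RNA of hippocampi from male albino Wistar rats of 12 weeks, dissected between set Bregma levels, on 11 arrays with 2 colours. Each array held a pool of 3 rats in Cy5 against a common reference in Cy3, a mixture of hippocampus, thalamus and cortex taken from naive, sham and stimulated rats. DBS rats (4 arrays, 12 rats) had the ventrolateral thalamus stimulated for 1 hour a day over 14 days; sham rats (4 arrays, 12 rats) had the electrode placed and no current; naive rats (3 arrays, 9 rats) had neither. The naive labels number their replicates out of 4, and 3 naive arrays were analysed here. All groups were handled alike, per the labels, and the labels call the arrays biological replicates. A value is the log2 ratio of the pool to the reference, so that 0 means equal signal in both, and the number of arrays limits the precision.

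As background, an implanted electrode passes through tissue and leaves a local lesion with a glial reaction, so a sham operation is a treatment in its own right and serves as the control for the current. The ventrolateral thalamus relays cerebellar and basal ganglia signals to motor cortex, and the hippocampus serves memory and spatial navigation. In bulk tissue, fewer cells of a type and less RNA per cell cannot be told apart. The numbered rows could not be tied to the platform's gene names, so no gene, function or sequence is assigned to any member, and the hippocampal identity of the pools was not checked on marker genes. Only 4 feature numbers are printed: H1 is feature 18798, H3 is 21597, L1 is 34961 and L2 is 4477.

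All features but H7 and H10 can be described by 3 kinds of profile, told apart after their values were seen. Features H1, H2, H3, H4 and H6 were far below the reference in naive rats, nearer to it in DBS and nearer still in sham. Features H5, L1 and L2 owed most of their sham shift from the nearer group mean to sham replicates 1 and 3. H10 owed most of its shift to replicate 3, and H7 was graded over the sham arrays. The remaining 5, H8, H9, H11, L3 and L4, had gaps of 0.325 to 0.374, and each of their sham arrays lay at least 0.139 from the nearer group mean.

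Feature H1 had the largest gap, 1.74 (3.33-fold). Its log2 ratio was 0.46, -0.86, -0.43 and -0.49 in sham replicates 1 to 4. It was -1.54, -2.24, -2.06 and -2.43 in DBS replicates 1 to 4, and -2.65, -3.14 and -2.76 in naive replicates 1 to 3. The 3 groups did not overlap, with naive lowest, DBS above it and sham highest, and sham replicate 1 was the highest array of all. The means were -0.33 ± 0.56 in sham (SD, n = 4), -2.07 ± 0.38 in DBS (SD, n = 4) and -2.85 ± 0.26 in naive (SD, n = 3).

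Feature H2 was a near-copy of H1: the values differed by a root-mean-square of 0.127 over the 11 arrays, and the gap was 1.72. Such a pair may be repeated spots of a probe, which was not tested, and is not counted as independent. H3 and H4 formed another such pair, with a root-mean-square difference of 0.136. Counting near-identical features once, 9 sham-high profiles were left of 11, while the 4 sham-low features were all distinct.

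Feature H3 read 0.55, -0.55, -0.27 and -0.25 in sham, -1.10, -1.73, -1.47 and -1.81 in DBS, and -1.98, -2.21 and -2.00 in naive, each in the order of the replicate numbers. Its sham values again lay above all others, and DBS lay above naive without overlap. H4 read 0.40, -0.69, -0.46 and -0.40 in sham, -1.26, -1.68, -1.46 and -1.74 in DBS, and -2.12, -2.34 and -2.18 in naive. H6 was weaker, at -0.13, -0.90, -0.97 and -0.54 in sham, -1.27, -1.66, -1.13 and -1.5 in DBS, and -1.79, -1.82 and -1.79 in naive. The nearest DBS array of H6 was 0.161 below the nearest sham array.

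The profiles of H1, H2, H3, H4 and H6 ran alike over the arrays, with Pearson correlations of 0.954 to 0.998 in each pair (11 arrays that share the group differences; a description without a test). No feature outside the members reached a correlation of 0.95 with H1, H2, H3 or H4, and 1 did so with H6, at 0.971 and with a gap of 0.17. The closest outside features stood just under that cutoff, at 0.931 to 0.947 with H1 to H4. Features were not counted at a lower cutoff. Of the 11 sham-high features, these 5 had a naive mean below -1 (1.67% of all features), and 8 had one below 0 (49.9% of all features). H1 and H2, and H3 and H4, are near-copies and do not count separately. The rule set no level for the naive mean, but these 5 were described together after their low level was seen, so nothing is read from the distance to the shares.

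**Figure D1:**
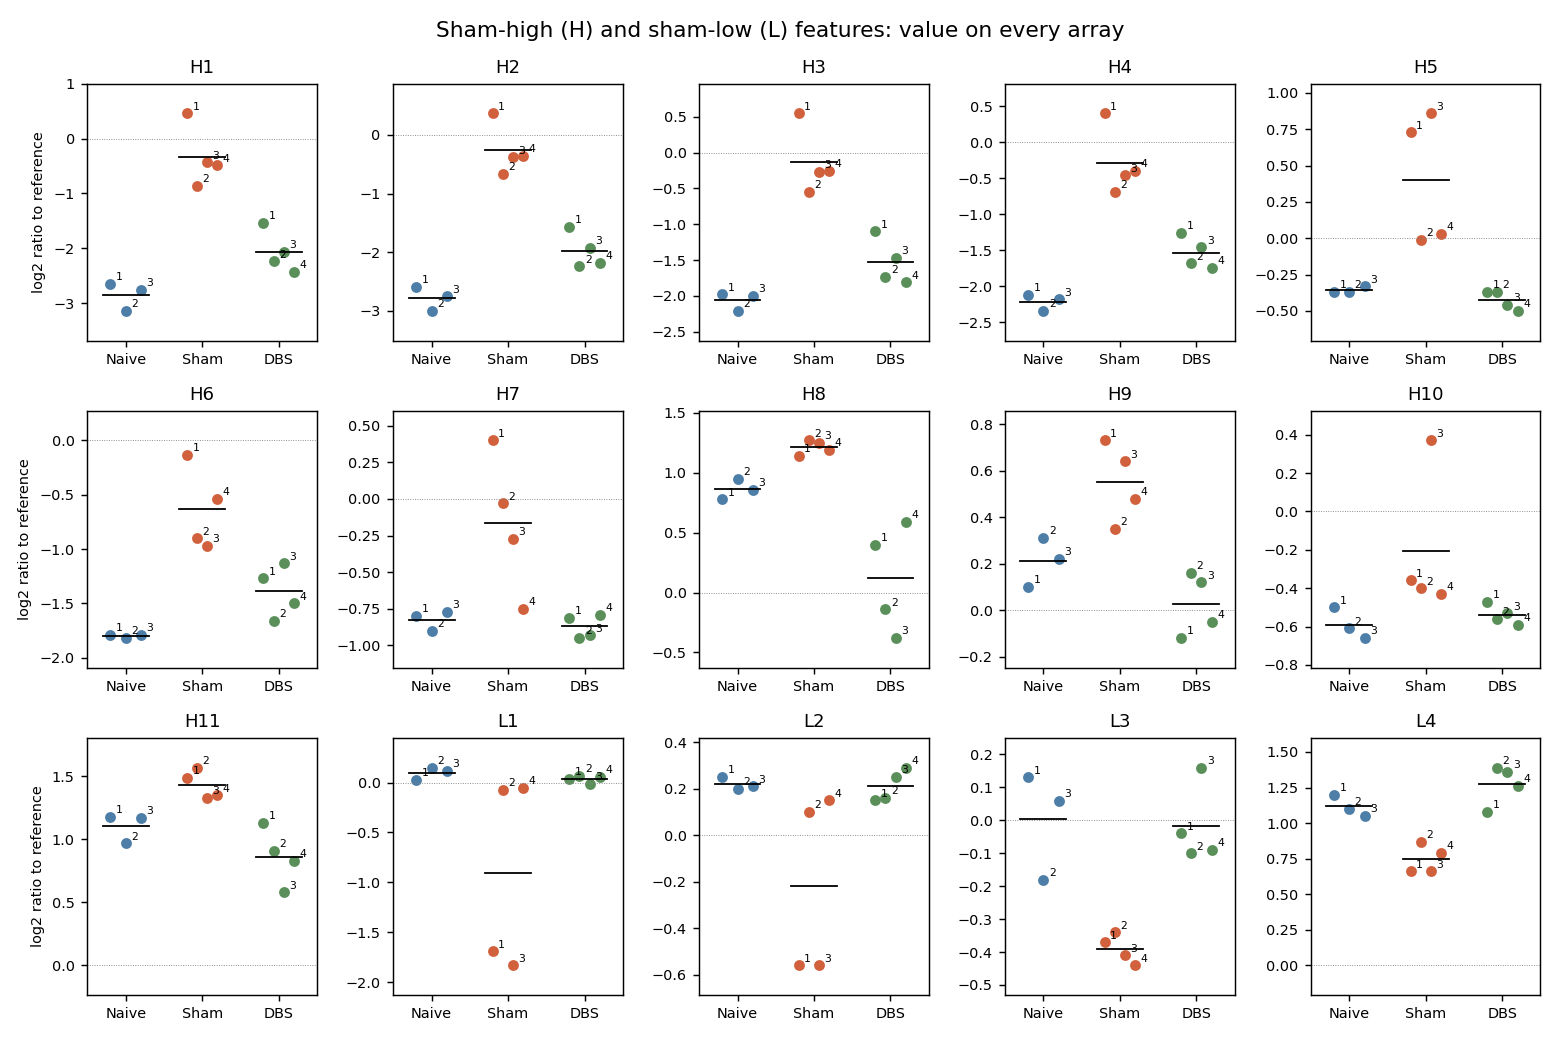
Log2 ratio to the reference (vertical axes, scaled separately) of the 11 sham-high features (H) and the 4 sham-low features (L) on each array, by group; points are arrays labelled with their replicate number and bars are group means. Sham arrays lie above or below all others in every panel because the rule asked for it, while the spread between sham arrays differs: 0.06 (SD) at H8 and 0.98 at L1.

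Features H5, H7 and H10 had DBS and naive means within 0.07 of each other and uneven values in sham. H5 read 0.73, -0.01, 0.86 and 0.03 in sham replicates 1 to 4, against -0.50 to -0.37 over the DBS arrays and -0.37 to -0.33 over the naive arrays. Sham replicates 1 and 3 therefore carried most of its gap of 0.76. H7 read 0.40, -0.03, -0.27 and -0.75 in sham, with DBS between -0.95 and -0.79 and naive between -0.90 and -0.77, so that sham replicate 4 cleared the nearest other array by 0.027. H10 read -0.36, -0.40, 0.37 and -0.43 in sham, with DBS between -0.59 and -0.47 and naive between -0.66 and -0.50. Sham replicate 3 stood alone there, and H10 no longer met the rule when that array was left out.

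Features H8, H9 and H11 lay above the reference in naive rats and higher still in sham, with DBS as the lowest group. H8 was tight in sham, at 1.14, 1.27, 1.25 and 1.19, and in naive, at 0.78, 0.95 and 0.86. Its DBS values were 0.40, -0.14, -0.38 and 0.59, all lower than naive and with a wider spread. H9 read 0.73, 0.35, 0.64 and 0.48 in sham, -0.12, 0.16, 0.12 and -0.05 in DBS, and 0.10, 0.31 and 0.22 in naive. H11 read 1.49, 1.57, 1.33 and 1.35 in sham, 1.13, 0.91, 0.58 and 0.83 in DBS, and 1.18, 0.97 and 1.17 in naive. In both, DBS and naive arrays overlapped.

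Among the sham-low features, L1 had a gap of 0.951 (1.93-fold). Its sham values were -1.69, -0.07, -1.83 and -0.05, its DBS values 0.04, 0.07, -0.01 and 0.06, and its naive values 0.03, 0.15 and 0.12. Sham replicates 1 and 3 lay far below, while replicates 2 and 4 lay just below the lowest other array, replicate 4 by 0.039. L2 showed the same division, with -0.56, 0.10, -0.56 and 0.15 in sham, 0.15, 0.16, 0.25 and 0.29 in DBS, and 0.25, 0.20 and 0.21 in naive. Its sham replicate 4 lay 0.003 below the lowest DBS array. L1 and L2 correlated at 0.986.

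The other sham-low features were more even over the sham arrays than L1 and L2. L3 read -0.37, -0.34, -0.41 and -0.44 in sham, -0.04, -0.10, 0.16 and -0.09 in DBS, and 0.13, -0.18 and 0.06 in naive. L4 read 0.66, 0.87, 0.66 and 0.79 in sham, 1.08, 1.39, 1.36 and 1.26 in DBS, and 1.20, 1.10 and 1.05 in naive. Its sham replicates 1 and 3 lay farther from the naive mean (0.461 and 0.46) than replicates 2 and 4 (0.245 and 0.322). At L3 and L4 the DBS and naive arrays overlapped and the SD between sham arrays was 0.04 and 0.11, against a median of 0.074 over all features.

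The sham arrays did not contribute equally. Sham replicate 1 lay farthest from the other groups at 8 of the 15 features and sham replicate 2 nearest at 8. The farthest sham array was over 2 times as far from the nearer group mean as the nearest one at 11 features, up to 20.4 times at L1. At 7 features replicates 1 and 3 both lay farther out than replicates 2 and 4. For the sham-high features the median SD was 0.441 between sham arrays, 0.227 between DBS arrays and 0.106 between naive arrays, while over all features these medians were 0.074, 0.083 and 0.066.

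**Figure D2:**
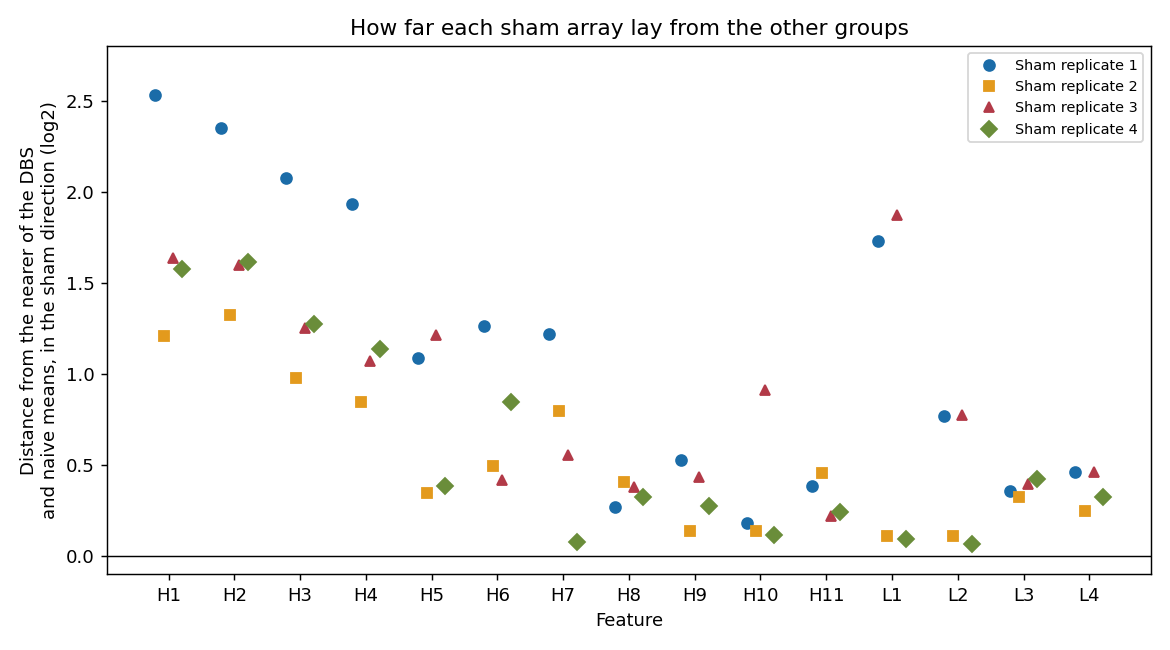
Distance of each sham array (4 symbols) from the nearer of the DBS and naive means, in the direction of the sham shift, on the log2 scale, for each of the 15 features. Sham replicate 1 is farthest at H1 to H4, H6 and H7. Replicates 1 and 3 separate from replicates 2 and 4 at H5, L1 and L2, and the arrays lie close together at H8 and L3.

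The division of sham replicates 1 and 3 from 2 and 4 was also seen among features that reached the gap but missed the rule. Of 70 features whose sham mean was high enough but whose arrays overlapped, 35 had exactly 2 sham arrays above all others. In 25 of these they were replicates 2 and 4, and in 5 they were replicates 1 and 3, the higher pair at H5. Another 17 of the 70 had 3 sham arrays above all others, and in 12 the one not above was replicate 4, which is another division. Of 53 such features with a low sham mean, 24 had exactly 2 sham arrays below all others, and in 19 these were replicates 1 and 3. The 8 features outside the members that correlated with L1 at 0.95 or more had sham replicates 1 and 3 between -3.17 and -0.57, and replicates 2 and 4 between -0.32 and 0.14. They were picked for their likeness to L1, so this pattern follows from the choice and is a description. Over all features, sham replicates 2 and 4 correlated at 0.932 and the other pairs of sham arrays at 0.867 to 0.896. Replicate 1 was not closer to replicate 3 there: they correlated at 0.888, against 0.896 for replicates 1 and 2 and 0.895 for replicates 1 and 4. Replicate 3 was closer to replicate 1 than to replicate 2 (0.867) or replicate 4 (0.881). No label separates these pools, and whether slide, scan or dissection moves with them was not tested.

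The rule placed both DBS and naive away from sham on the same side, but did not set which of them lay farther. The share of the sham shift that was absent in DBS, which the rule makes positive at every member, was 64.7% to 72.1% at H1, H2, H3, H4 and H6, where 100% means that the DBS and naive means were equal. It was 86.8% to 109.2% at H5, H7 and H10, and 94.1% to 98.4% at L1, L2 and L3. It was 141.8% at L4, 152.2% at H9, 176.3% at H11 and 317.1% at H8, where DBS lay beyond naive on the side away from sham.

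**Figure D3:**
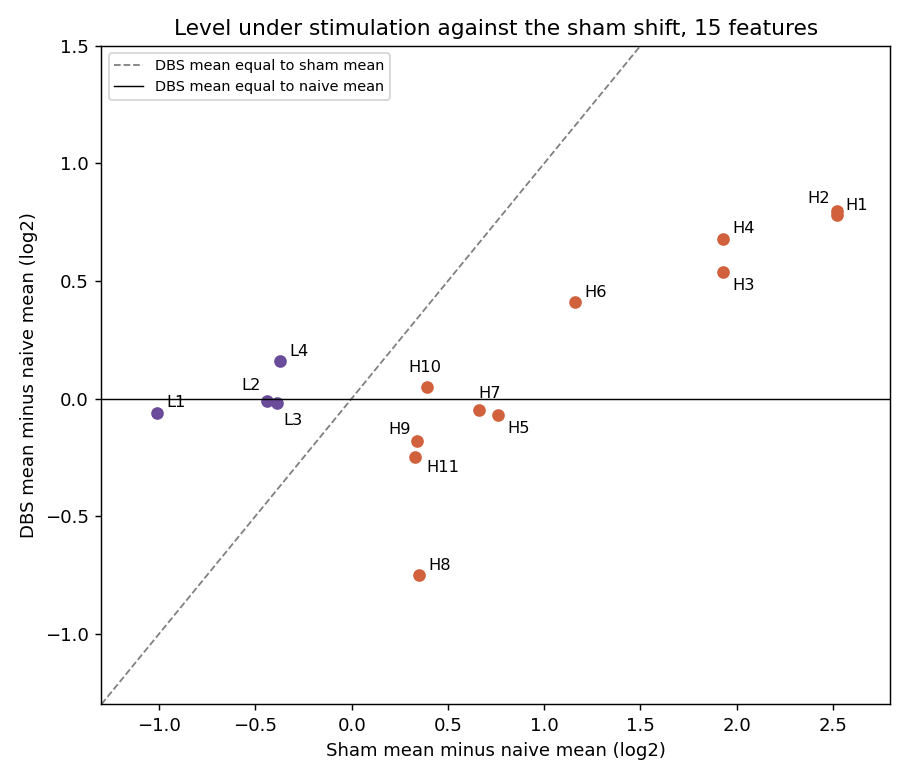
DBS mean minus naive mean (vertical axis) against sham mean minus naive mean (horizontal axis), both log2, for the 11 sham-high features (orange) and the 4 sham-low features (purple). Features on the solid line have equal DBS and naive means; H1 to H4 and H6 lie above it by 0.41 to 0.80, and H8 lies below it by 0.75.

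Tested with limma over all 45220 features and adjusted by the Benjamini-Hochberg method, DBS and naive differed at 2 of the 11 sham-high features and at 0 of the 4 sham-low features, where 8.17% of all features passed. Feature H2 was higher in DBS than in naive by 0.80 (SE 0.21, limma adjusted p = 0.0366), without overlap between the arrays. At H8 the DBS mean minus the naive mean was -0.75 (SE 0.18; adjusted p = 0.021 in limma), also without overlap. H1, the near-copy of H2, differed by 0.78 (SE 0.27, limma adjusted p = 0.105), so the pair straddled the threshold. At an unadjusted p under 0.05, limma gave 7 sham-high and 0 sham-low features. The share of all features at that level is not given here, so nothing is read from these 7. The rule also used the DBS and naive values, so all counts of called members are descriptions.

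The DBS arrays lay wholly above the naive arrays at H1, H2, H3, H4 and H6, which is 5 of 11 sham-high features (8.99% of all features). They lay wholly below the naive arrays at H8 (11.1% of all features). The rule also used the DBS and naive values, so nothing is read from the distance to the shares over all features. H1 and H2, and H3 and H4, are near-copies and do not count separately, also in the fits below. H3, H4 and H6 were higher in DBS by 0.54, 0.68 and 0.41 without passing the threshold (limma adjusted p = 0.179, 0.0612 and 0.199). The fit shares the spread over the 3 groups, and the sham arrays varied most at these features. Whether that spread kept them from passing was not tested. With DBS and naive arrays alone in the fit, 6.4% of all features passed. The limma adjusted p was then 0.0426 at H1, 0.0144 at H2, 0.00588 at H4 and 0.0635 at H8. H1 and H4 thus joined H2, and H8 lost its call. H3 and H6 stayed without a call in that fit, at a limma adjusted p of 0.0735 and 0.0641. Without sham replicate 1, whose values leave the difference itself untouched, H1, H2, H3, H4 and H8 passed, as did 7.38% of all features. None of the 15 passed without naive replicate 2 or without naive replicate 3, where 4.61% and 5.17% of all features passed. H2 also lost its call without DBS replicate 1, DBS replicate 3, sham replicate 4 or naive replicate 1, and H8 lost it without DBS replicate 2.

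The rule can also be read on an array it did not use. When each sham array was left out, the features were chosen on the other 10 arrays, and the left-out array was then compared with all DBS and naive arrays. Left-out sham replicate 1 lay above them at 12 of 15 sham-high features (12% of all features), replicate 2 at 10 of 12 (11.8%), replicate 3 at 10 of 25 (11.9%) and replicate 4 at 14 of 38 (9.5%). It lay below them at 5 of 6 sham-low features for replicate 1 (10%), 6 of 10 for replicate 2 (11.8%), 5 of 5 for replicate 3 (10.1%) and 5 of 11 for replicate 4 (9.11%). The shares varied widely between arrays. The choice had already placed the DBS and naive arrays on the far side of the other sham arrays, which alone raises the share above that of all features, so nothing is read from that difference and it was not tested.

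**Figure D4:**
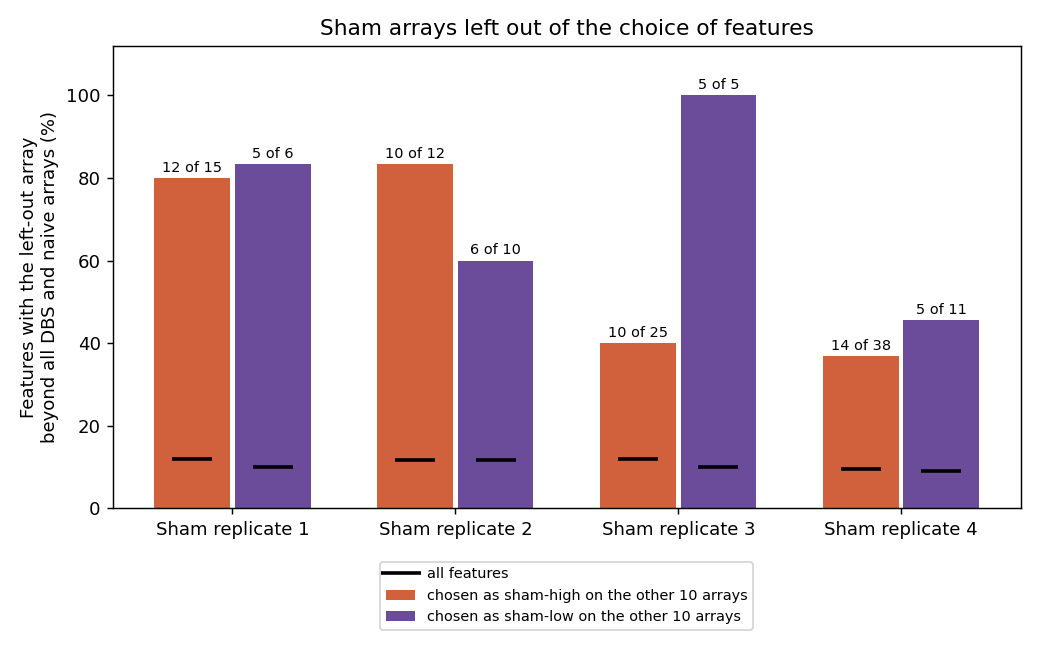
Percentage of features, chosen on the other 10 arrays as sham-high (orange) or sham-low (purple), at which the left-out sham array lay beyond all DBS and naive arrays; black marks give the same percentage over all 45220 features and labels give the counts. The bars run from 36.8% to 100%, and the black marks from 9.11% to 12%.

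The list depended on its threshold and on single arrays. Just inside the gap of 0.3 stood H11 at 0.325 and L4 at 0.372, and just outside, with arrays apart, stood features at 0.278 (high) and 0.288 (low). Sham arrays were apart from all others at 232 features on the high side and 211 on the low side, with median gaps of 0.119 and 0.103, so most such features differed by little. Leaving out sham replicate 4 gave 38 sham-high and 11 sham-low features, leaving out sham replicate 3 gave 25 and 5, and leaving out sham replicate 2 gave 12 and 10. Without DBS replicate 2 there were 17 and 6, and without naive replicate 3 there were 18 and 5. H9, H10 and H11 each left the list in at least 1 of the 11 choices with an array left out, whereas the other 12 met the rule in all of them. Only the gap can fail when an array is left out, since the remaining arrays stay apart, so this says nothing of how narrowly H7, L1 or L2 separated.

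The same rule, applied to each of the other groups as the one that stands apart, gave far longer lists. It gave 651 high and 146 low features for DBS (1.44% and 0.323% of all features), and 101 high and 635 low features for naive (0.223% and 1.4%). For sham it gave 11 and 4 (0.0243% and 0.00885%). These counts are descriptions, since the values chose the features, copies were not merged and the naive group had 3 arrays. Among the sham-high features 4 had a gap of at least 1, as had 56 of the 651 DBS-high and 22 of the 635 naive-low features.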

How the data were processed

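The deposited values are log2 ratios of the hippocampal pool over the reference, 1 for each of 45220 numbered features on each of 11 arrays. The base of 2 is assumed, since the sources used here do not give the log base, background correction, normalization, spot filter, slide or scan. Array medians lay between -0.00589 and 0.00535, so the deposited values were near 0 in the middle; whether the authors centred them is unknown. The sign assumes pool over reference, after the labels' dyes and descriptions. All 55 pairs of arrays correlated positively, at 0.732 to 0.932; were the ratio the reverse, sham-high and sham-low would change places. Signal over background could not be computed, and control features stayed in.

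Members were found with Python 3.11.15, numpy 2.4.6 and pandas 2.3.3. Group means over all arrays were fitted with limma 3.58.1 in R 4.3.3 (lmFit, eBayes, default settings, two-sided), without a replicate block. Adjusted p under 0.05 is called. Both steps were tested on simulated data. Members, contrasts and alternatives were chosen with earlier results of these data known. The feature numbers printed are, in each direction, the largest gap and the next-largest whose profile is not near-identical (root-mean-square difference under 0.3); other members are given by rank. Arrays sharing a replicate number did not deviate together (correlations of deviations from group means -0.122 to 0.15), so the numbers were not taken as pairs.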

Additional observations from a re-analysis of the deposited data

Results flagged for a closer look

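Among 30 groups checked (4 DBS or 4 sham arrays at each of 15 features), 1 held an array far from the others: sham replicate 3 at H10 read 0.37, with a gap to the next sham array of 0.912 of the group's range, above Dixon's 95% limit for 4 arrays. In unselected groups of this size chance flags about 1 in 20. The rule chose the members on these same values, so that rate does not hold here and the flag is a description. What sets this array apart at H10 was not tested.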

How the results depend on the processing

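Centring on the array median, quantile normalization and group medians kept the counts of 11 sham-high and 4 sham-low features within 1.5 times. A gap of at least 0.2 gave 29 and 15, and a gap of at least 0.5 gave 7 and 1. Leaving out 1 array at a time gave 10 to 38 sham-high and 4 to 11 sham-low features; the largest counts came without sham replicate 4. For DBS against naive, limma called 2 sham-high features (8.17% of all features passed). Quantile normalization gave 1 (7.97%) and robust eBayes 1 (8.24%), H8 in both. Leaving out single arrays gave 0 to 5, where 4.61% to 8.22% of all features passed. With the replicate block limma called 5 (H1, H2, H3, H4 and H8), where 6.21% of all features passed. The limma adjusted p was then 0.00532 at H1, 0.0296 at H3 and 0.0142 at H4. Replicate 1 was the highest array of each group at H1 to H4, but over all features arrays with the same number did not deviate together. The sham-low count was 0 in all 18 alternatives. The difference of L2 between DBS and naive, -0.01, turned to 0.013 without DBS replicate 1, 0.011 without DBS replicate 2 and 0.01 without naive replicate 1, never past the threshold; leaving out single arrays gave -0.032 to 0.013. The left-out sham arrays averaged 60.0% (sham-high) and 72.2% (sham-low), with SDs between the 4 arrays of 25.0 and 24.2. Under the 4 alternatives the averages ran from 48.5% to 78.5% and from 48.1% to 79.2%. These moves were smaller than the SDs, which are a wide yardstick, so stability is not read from them. The causes were not tested. Background correction, dim spots and slide could not be varied, because only log ratios were used.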
